A study of Mus musculus with 3 samples.

Results

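Flg, Flg2, Hrnr, Rptn, Tchh and Crnn encode the fused S100 proteins, also called the filaggrin-type proteins. They were read as 6 rows, matched by symbol, of the 26989 genes listed in any of the 3 count tables, and each of the 6 had at least 1 count in every library. Tchhl1, a relative outside the 6, is given beside them where it was counted.

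Single cells of whole skin from C57BL/6 mice were profiled with a Singleron GEXSCOPE kit, which marks the RNA of each cell with a barcode. The animals were 9 weeks old, per the series' design text. There were 3 libraries, 1 per group: irradiated skin given VD (UV plus VD, where VD is taken to mean vitamin D, named in the title), irradiated skin given saline (UV), and unirradiated skin given saline (control). The UV and VD doses, the timing and the number of mice behind each library are not given in the sources used here. With 1 library a group no difference can be tested, so each comparison describes these libraries and not the conditions, and intervals in square brackets are 95% intervals that cover counting error only.

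A fused S100 protein joins a calcium-binding S100 domain to a long stretch of repeats. Profilaggrin, the product of Flg, is stored in the keratohyalin granules of the granular layer, is cut into filaggrin units that bundle keratin filaments as the cell flattens, and is later broken down to free amino acids that hold water in the stratum corneum. Filaggrin 2 (Flg2) and hornerin (Hrnr) are its closest relatives and are also made in the last living layers. Repetin (Rptn) is a scarcer cornified-envelope precursor, trichohyalin (Tchh) hardens the inner root sheath and medulla of the hair, and cornulin (Crnn) is known best from the oesophagus and other stratified mucosae. In humans, loss-of-function variants of FLG cause ichthyosis vulgaris and predispose to atopic dermatitis.

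The 6 genes lie side by side on chromosome 3, in the order Crnn, Flg2, Flg, Hrnr, Rptn, Tchh with no other protein-coding gene between them in the RefSeq annotation. Promoters of all 6 were found in RefSeq (GRCm38.p6, 250 bases before to 50 after the start of each gene, all on the plus strand). The 4 members that carried nearly all counts in keratinocytes are printed because the results turn on how they moved together or apart. Capitals mark TGANTCA, a loosened form of the site of AP-1 (Jun and Fos dimers) with any base at its centre, and the TATA box TATAAA. The intervals are chr3:93273296-93273595 for Flg, chr3:93197023-93197322 for Flg2, chr3:93319499-93319798 for Hrnr and chr3:93393449-93393748 for Rptn.
Flg: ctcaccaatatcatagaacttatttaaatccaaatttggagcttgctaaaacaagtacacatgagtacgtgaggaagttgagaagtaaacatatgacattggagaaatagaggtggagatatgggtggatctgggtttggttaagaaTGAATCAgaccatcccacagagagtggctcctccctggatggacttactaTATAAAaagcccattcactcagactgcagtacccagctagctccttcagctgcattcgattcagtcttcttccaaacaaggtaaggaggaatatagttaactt
Flg2: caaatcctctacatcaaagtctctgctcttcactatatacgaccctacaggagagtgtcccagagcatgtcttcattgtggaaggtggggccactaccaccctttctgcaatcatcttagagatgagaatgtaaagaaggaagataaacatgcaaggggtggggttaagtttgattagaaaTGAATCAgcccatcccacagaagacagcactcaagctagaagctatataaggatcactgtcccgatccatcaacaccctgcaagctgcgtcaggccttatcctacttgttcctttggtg
Hrnr: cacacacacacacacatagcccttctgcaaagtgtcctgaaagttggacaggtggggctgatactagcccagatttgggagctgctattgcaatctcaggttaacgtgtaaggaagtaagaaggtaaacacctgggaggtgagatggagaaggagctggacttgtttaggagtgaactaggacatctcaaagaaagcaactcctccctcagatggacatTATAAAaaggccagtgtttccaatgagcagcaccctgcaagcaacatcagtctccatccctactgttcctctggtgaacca
Rptn: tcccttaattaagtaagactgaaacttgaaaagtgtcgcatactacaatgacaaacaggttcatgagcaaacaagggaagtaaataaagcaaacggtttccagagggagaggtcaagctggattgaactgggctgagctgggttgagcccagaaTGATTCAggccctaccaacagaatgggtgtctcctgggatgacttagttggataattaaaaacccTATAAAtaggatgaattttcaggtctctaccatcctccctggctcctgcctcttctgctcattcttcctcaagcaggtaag
TGANTCA, a pattern that matches both strands alike, was found in 4 of the 6 promoters (Flg, Flg2, Rptn and Crnn), against 7.81% of the 32851 RefSeq promoters of this length. It starts at position -103 in Flg, -69 in Flg2 and -96 in Rptn, counted from the first transcribed base, and is absent from these windows of Hrnr and Tchh. The matches were TGAATCA in Flg, Flg2 and Crnn and TGATTCA in Rptn. None had the G or C that the usual AP-1 site has at its centre. TATAAA, searched on both strands, was found in 4 of the 6 (Flg, Hrnr, Rptn and Crnn), against 13.6% of all promoters. TAAACA, letters bound by forkhead factors, was found on either strand in 4 of the 6 (Flg, Flg2, Hrnr and Tchh), against 13.4%, and is not marked in capitals. The letters AGGTCA followed after 3 bases by another AGGTCA, a repeat bound by the vitamin D receptor, were found on either strand in 0 of the 6 and in 2 of all promoters, which says only that these letters are not in these windows. The motifs were chosen after the sequences had been read, they do not overlap one another here, and a match is a description of the letters and not of binding.

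After filtering, 6199 UV plus VD, 5451 UV and 9078 control cells held 69126823, 50610389 and 79450666 counts. Clusters were formed without the 6 genes and Tchhl1 and named from other markers. Keratinocytes made up 5765 (93.0%), 3585 (65.8%) and 8471 (93.3%) of the cells in the UV plus VD, UV and control libraries, with a median of 9719, 9560 and 6955 counts each. A keratinocyte cluster led by the stefin genes Stfa1 and Stfa3 with Krt6b and Sprr1b held 13 UV plus VD, 628 UV and 6 control cells, and a hair-forming, inner root sheath-like cluster held 310 cells, all from the UV library. A cluster found mostly in 1 library may be that library and not a cell type. Results that rest on the stefin-led cluster are therefore given with and without it where both were computed. Barcode sequences were shared by 37 to 66 cells between pairs of libraries, 0 of them with identical counts.

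In keratinocytes the UV library stood apart in Flg, Rptn and Hrnr and not in Flg2. Levels are given as CPM, the counts of a gene summed over the cells of a library and class, per 1000000 counts of all genes there. Flg was at 182 CPM in UV plus VD, 858 CPM in UV and 87.9 CPM in control keratinocytes. Hrnr was at 446 CPM in UV plus VD, 807 CPM in UV and 233 CPM in control. Rptn was at 1.65 CPM in UV plus VD, 108 CPM in UV and 1.78 CPM in control. All 3 were highest in UV, and Rptn had 109 counts in UV plus VD and 134 in control, against 4142 in UV. Flg2, in contrast, was at 547 CPM in UV plus VD, 422 CPM in UV and 343 CPM in control, so that UV plus VD was highest.

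The rule for a call was a 1.5-fold or larger difference in CPM plus 10 between libraries, applied to every gene with 20 or more counts in the pair. Between UV and control keratinocytes 3 of the 6 members were called higher, against 2.42% of 13585 genes tested, and 0 lower, against 1.22%. Flg was 9.77-fold higher in UV [9.51, 10.03], Hrnr 3.47-fold higher [3.403, 3.532] and Rptn 60.9-fold higher [51.2, 72.8]. From the highest ratio down, Rptn ranked 6, Flg 10 and Hrnr 33 among the 13585 genes. Flg2 was 1.23-fold higher in UV [1.21, 1.26] and ranked 882, and it was not called. On plain CPM, without the added 10, Tchh and Crnn also passed 1.5-fold and made 5 of the 6 higher, against 18.5% of genes.

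Between UV plus VD and UV keratinocytes the same 3 genes were called lower, against 1.5% of 13435 genes tested, and 0 members were called higher, against 0.261%. Flg was 4.71-fold lower in UV plus VD [4.62, 4.81], Hrnr 1.81-fold lower [1.78, 1.84] and Rptn 65.6-fold lower [54.2, 80.1]. Flg2 was 1.30-fold higher in UV plus VD [1.27, 1.32] and was not called. On plain CPM 5 of the 6 were lower, against 17.7% of genes. Without the stefin-led cluster, where 1.43% of genes were called lower, Flg was 3.87-fold lower [3.78, 3.95], Hrnr 1.92-fold lower [1.89, 1.954] and Rptn 19.8-fold lower [16.2, 24.4], and the 3 calls were kept. This comparison and the one before share the UV library, so the values of that library enter both.

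Between UV plus VD and control keratinocytes 3 of 5 members with enough counts were called higher, against 1.37% of 13476 genes, and 0 lower, against 0.779%. Flg was 2.07-fold higher in UV plus VD [2.01, 2.14], Hrnr 1.92-fold higher [1.88, 1.95] and Flg2 1.60-fold higher [1.57, 1.62]. Rptn, at 0.928-fold [0.714, 1.204], was not called. None of the 3 calls remained in interfollicular keratinocytes with bins of differentiation weighted as in control, as shown further on. In follicle keratinocytes, which that weighting leaves out, all 3 were called higher, against 3.65% of 7936 genes. Flg was at 2.73-fold there [2.56, 2.92], Flg2 at 3.14-fold [2.84, 3.47] and Hrnr at 2.27-fold [2.07, 2.49]. Genes with a mean of at least 100 CPM were called more often than genes in general: 8.42% higher in UV against control, 2.90% lower in UV plus VD against UV and 6.50% higher in UV plus VD against control.

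The makeup of the family shifted accordingly. The 6 genes together took 1178 CPM in UV plus VD, 2199 CPM in UV and 666 CPM in control keratinocytes. Flg made up 15.5% of their counts in UV plus VD, 39.0% in UV and 13.2% in control. Flg2 made up 46.5% in UV plus VD, 19.2% in UV and 51.5% in control. The share of Hrnr was 37.9% in UV plus VD, 36.7% in UV and 35.0% in control. Without the stefin-led cluster Flg made up 15.5% in UV plus VD, 33.4% in UV and 13.2% in control, Flg2 46.5%, 24.3% and 51.5%, and Hrnr 37.8%, 40.6% and 35.0%. In suprabasal keratinocytes, which hold no cell of that cluster, Flg made up 13.2% in UV plus VD, 23.5% in UV and 10.7% in control, and Hrnr 38.8%, 47.3% and 35.6%. Counts were not scaled to transcript length, so each share is to be set only against the same gene's share in another library. The stacked shares of UV plus VD and control resembled each other more than either resembled UV.

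**Figure D1:**
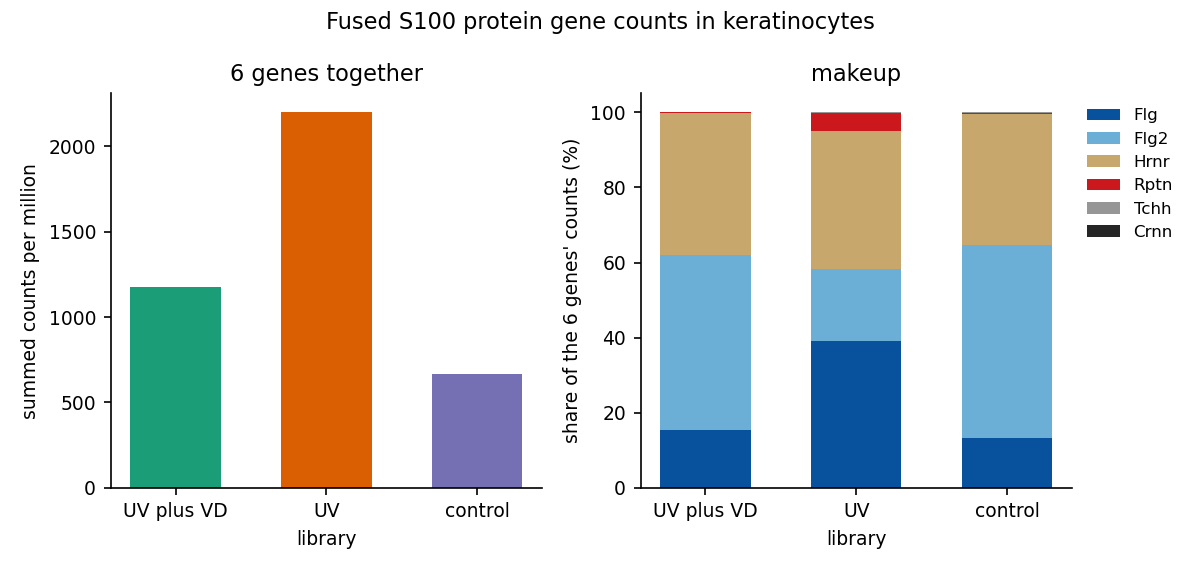
Left, summed CPM of the 6 genes in keratinocytes of the UV plus VD, UV and control libraries (1178, 2199 and 666 CPM). Right, the share of those counts from each gene in percent, where Flg fills 15.5% in UV plus VD, 39.0% in UV and 13.2% in control.

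The share of positive keratinocytes (at least 1 count) told the levels of Flg apart in the same order. It was 19.0% in UV plus VD, 39.9% in UV and 7.69% in control for Flg. After each cell had been thinned to 3000 counts, which removes the difference in depth, the Flg share was 12.02%, 26.7% and 4.83% in the same order. For Flg2 it was 42.7% in UV plus VD, 31.9% in UV and 25.7% in control, and for Hrnr 40.6%, 41.2% and 21.4%. Thus a like share of keratinocytes carried Hrnr in UV plus VD and in UV, although its level was lower, and the counts per positive cell had the same median of 7 in both. For Rptn it was 0.503% in UV plus VD, 9.51% in UV and 0.413% in control.

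The counts of these genes sat in few cells. In keratinocytes 110 cells in UV plus VD, 88 in UV and 49 in control held 50% of the Flg counts. The corresponding numbers for Flg2 were 323 cells in UV plus VD, 118 in UV and 188 in control, and for Hrnr 347, 170 and 242. Rptn was more concentrated still, with 4 cells in UV plus VD, 29 in UV and 5 in control holding 50% of its counts.

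By cell class, the levels followed the layers of the epidermis and the upper follicle. In basal keratinocytes Flg was at 12.9 CPM in UV plus VD, 57.0 CPM in UV and 6.05 CPM in control. In suprabasal keratinocytes it was at 172 CPM in UV plus VD, 521 CPM in UV and 100.3 CPM in control. In follicle keratinocytes it was at 1171 CPM in UV plus VD, 2114 CPM in UV and 428 CPM in control, the highest class for Flg in every library. UV was 5.20-fold higher than control in suprabasal cells [5.03, 5.38], where 1.73% of genes were called higher, and 4.94-fold higher in follicle cells [4.68, 5.21]. The follicle class joins a low cluster and the high cluster 13 described further on, which held 109 of its 297 UV plus VD, 164 of its 648 UV and 118 of its 607 control cells.

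Flg2 behaved otherwise by class. In suprabasal keratinocytes it was at 625 CPM in UV plus VD, 627 CPM in UV and 502 CPM in control. In follicle keratinocytes it was at 524 CPM in UV plus VD, 364 CPM in UV and 167 CPM in control. In follicle cells Flg2 was therefore 2.18-fold higher in UV than in control [1.99, 2.40], while in suprabasal cells the ratio was 1.25 [1.22, 1.28] and not called. Hrnr was at 505 CPM in UV plus VD, 1049 CPM in UV and 333 CPM in control suprabasal keratinocytes, and at 510.2, 617 and 225 CPM in follicle keratinocytes in the same order.

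Most Rptn counts came from follicle cells in UV plus VD and control, and from the stefin-led cluster in UV. Follicle keratinocytes held 87.2% of the Rptn counts of the UV plus VD library, 13.2% of those of UV and 62.2% of those of control. Its level there was 47.2 CPM in UV plus VD, 121 CPM in UV and 23.9 CPM in control. In suprabasal keratinocytes Rptn was at 0.180 CPM in UV plus VD, 18.0 CPM in UV and 0.856 CPM in control, of which 31 of the 42 control counts came from 1 cell. In follicle cells, 4 of the 6 members were called higher in UV than in control, against 6.11% of 9160 genes, and 4 were called higher in UV plus VD than in control, against 3.65% of 7936. In UV plus VD against UV, Flg and Rptn were called lower there, against 6.23% of 8741, and Hrnr was not, at 0.827-fold [0.770, 0.889].

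**Figure D2:**
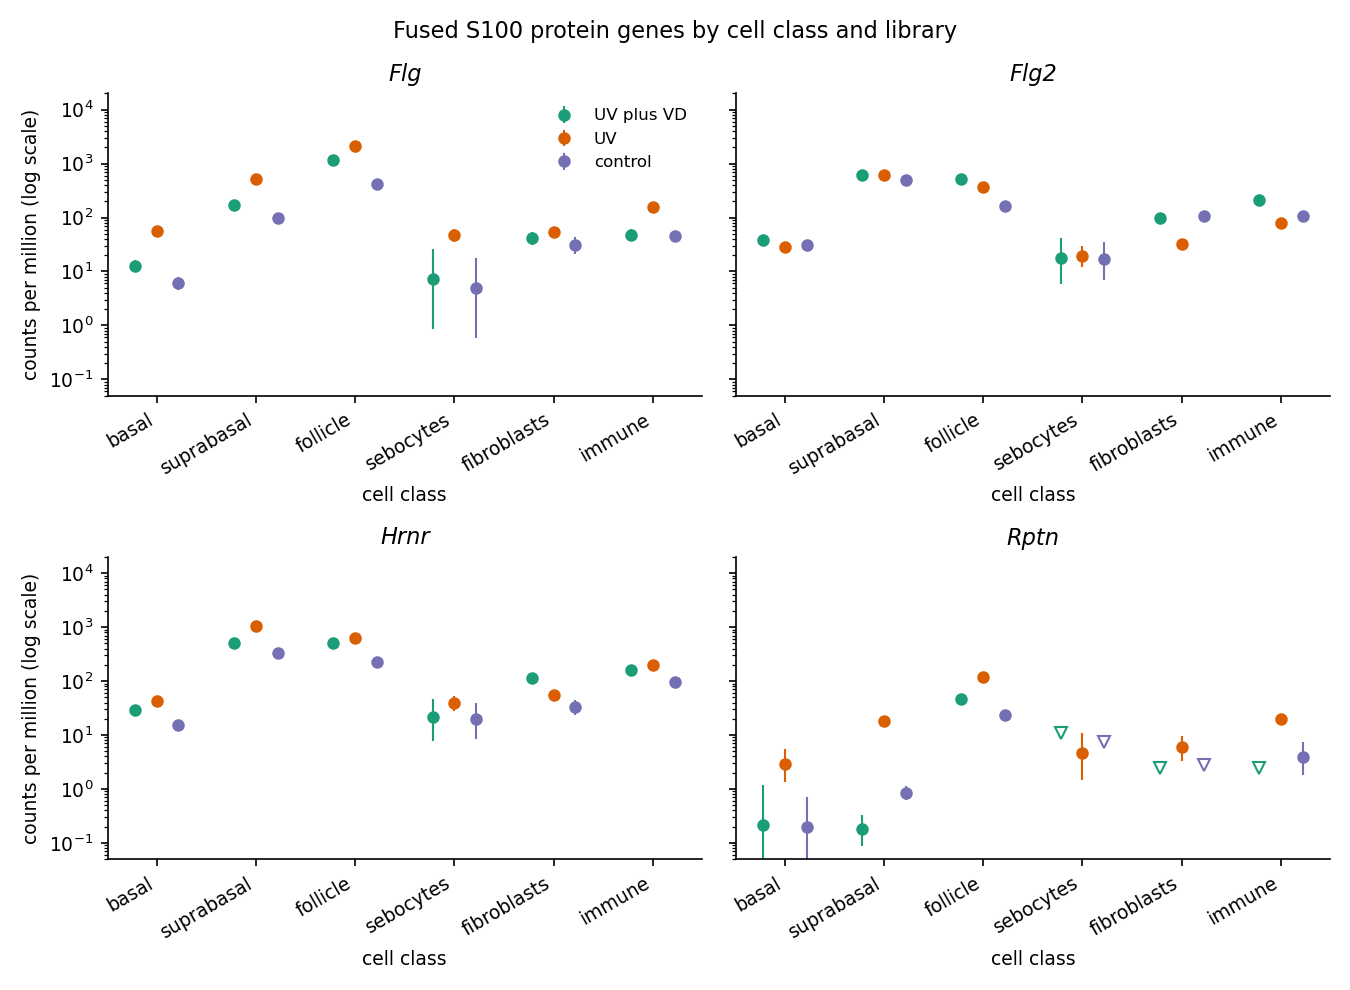
CPM on a log axis for Flg, Flg2, Hrnr and Rptn in 6 cell classes, with UV plus VD, UV and control from left to right within each class; bars are exact 95% Poisson intervals and open triangles mark classes with 0 counts, drawn at the level of 3 counts. Flg in follicle keratinocytes reaches 2114 CPM in UV, above the 521 CPM of suprabasal cells.

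Fibroblasts and immune cells, which are not known to make these proteins, also carried counts. The share of Flg-positive fibroblasts was 9.33% in UV plus VD, 16.4% in UV and 2.50% in control, with median totals of 5121, 6171.5 and 4766 counts. The share of Flg-positive basal keratinocytes was 6.41% in UV plus VD, 16.6% in UV and 2.76% in control. This was no higher than in fibroblasts beyond counting error, so these shares do not show expression by basal cells. The same held for Hrnr, with 12.7% of basal cells in UV plus VD, 15.9% in UV and 6.32% in control, against 22.8% of 193, 17.2% of 378 and 7.0% of 200 fibroblasts. Flg2 was found in 18.0% of basal cells in UV plus VD, 13.7% in UV and 12.4% in control, against 20.2%, 8.73% and 15.5% of fibroblasts. Immune cells were Flg-positive in 8.82% in UV plus VD, 25.3% in UV and 2.48% in control, at median totals of 5434.5, 4362.5 and 5431.5. Rptn was found in 11 of 378 UV fibroblasts, and in 0 of 193 in UV plus VD and 0 of 200 in control, which allows a share of up to 1.55% and 1.5%. Markers of interfollicular keratinocytes (44 genes, none a member) took a median of 0.557% of the counts of fibroblasts in UV plus VD, 0.364% in UV and 0.484% in control. In immune cells they took 0.631%, 0.386% and 1.69% in the same order. Doublets were not removed, and their part and that of free RNA in the counts of these cells was not tested.

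The named clusters placed the difference more finely. Clusters 6 and 10 were both granular or cornifying-like. In cluster 6, led by Wfdc21, Serpina12 and Slpi, Flg was at 315 CPM in UV plus VD, 1119.95 CPM in UV and 209 CPM in control. In cluster 10, led by Lce1 genes, Flg was at 1590.2 CPM in UV plus VD, 3871 CPM in UV and 2057 CPM in control. In cluster 13, upper follicle-like and led by Ccl20, Krt79 and Krt17, it was at 2332 CPM in UV plus VD, 4915 CPM in UV and 1528 CPM in control. UV was highest in each of the 3 clusters, while UV plus VD was above control in clusters 6 and 13 and below it in cluster 10. Although left out when the clusters were formed, Flg2 and Hrnr were among the 10 leading genes of cluster 6 and Flg among those of cluster 13. Rptn was among those of the stefin-led cluster 9.

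Hrnr was at 1688 CPM in UV plus VD, 4153 CPM in UV and 1738 CPM in control in cluster 6, and at 888, 1778 and 1154 CPM in cluster 10 in the same order. UV was thus 2.39-fold higher than control in cluster 6 [2.33, 2.46] and 1.54-fold higher in cluster 10 [1.45, 1.63], where 3.41% and 4.98% of genes were called higher. Flg2 in cluster 6 was at 2149 CPM in UV plus VD, 2532 CPM in UV and 2633 CPM in control. In cluster 10 Flg2 was at 2633 CPM in UV plus VD, 2465 CPM in UV and 4164 CPM in control. Both irradiated libraries were lower than control there, UV at 0.592-fold [0.569, 0.615] and UV plus VD at 0.632-fold [0.613, 0.652]. In that cluster 15% of 4361 genes were called lower in UV than in control and 2.13% of 5441 in UV plus VD than in control.

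Of the cluster led by stefin genes only the UV library held enough cells to compare. Its 628 UV cells had Flg at 1484 CPM, Hrnr at 604 CPM, Rptn at 420 CPM and Flg2 at 57.2 CPM. The cluster held 32.7% of the Flg counts and 73.9% of the Rptn counts of the UV library, but 2.54% of its Flg2 counts. Rptn was found in 26.3% of its UV cells. Without the cluster, the log2 ratio of UV against control on CPM plus 10 was 2.87 for Flg, 1.84 for Hrnr, 1.83 for Rptn and 0.56 for Flg2, against 3.15, 1.75, 3.33 and 0.29 with it. The 3 calls were kept, where 2.51% of genes were called higher, and the ratio of Rptn shrank most, to 17.9-fold [14.9, 21.6].

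**Figure D3:**
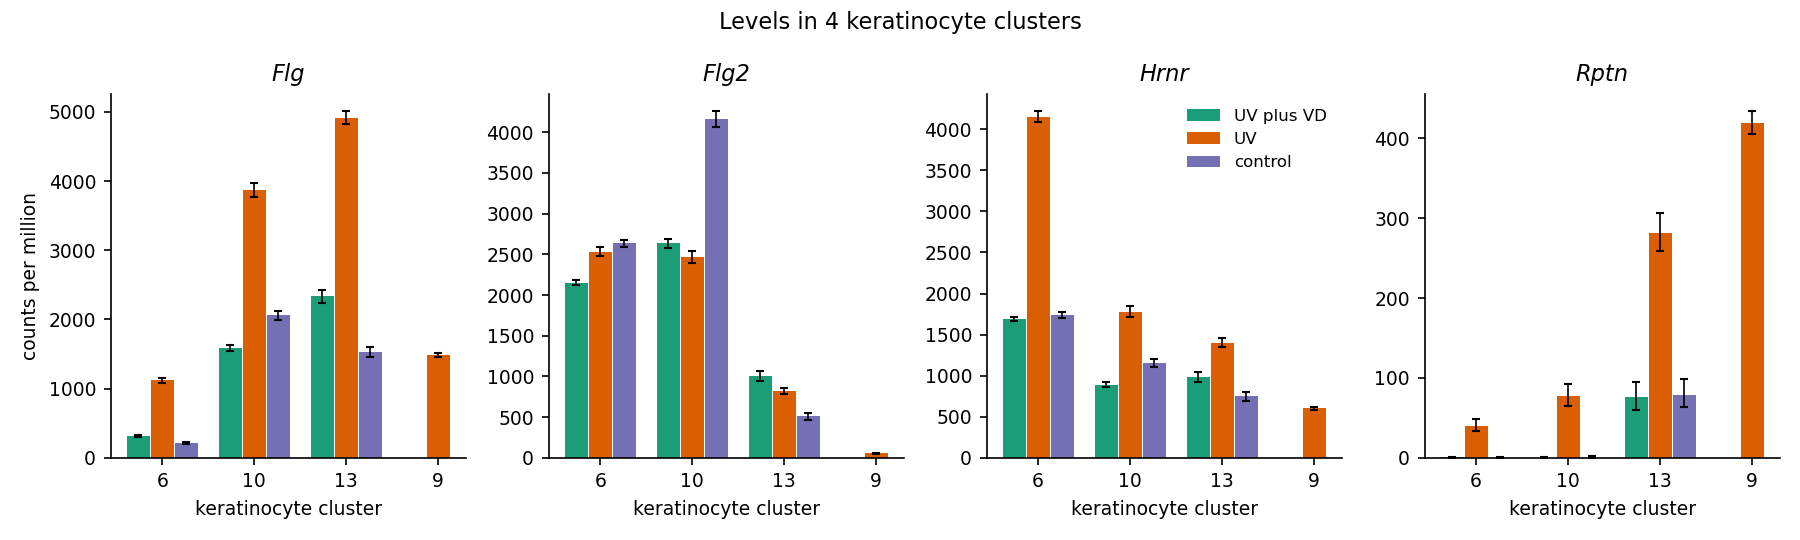
CPM of Flg, Flg2, Hrnr and Rptn in granular or cornifying-like clusters 6 and 10, upper follicle-like cluster 13 and the stefin-led cluster 9, with bars for UV plus VD, UV and control from left to right and exact 95% Poisson intervals; bars are left out where a library had under 50 cells. In cluster 10 Flg is highest in UV (3871 CPM) and Flg2 in control (4164 CPM).

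To set cells of like differentiation score side by side, interfollicular keratinocytes were ordered by that score and cut into 5 bins with the libraries weighted alike. The score was the mean log level of granular or cornifying markers minus that of basal markers, none of them a member. The latest bin (bin 5) held 26.7% of the UV plus VD, 23.9% of the UV and 9.42% of the control interfollicular keratinocytes, so more cells of the irradiated libraries scored as late. Bins are ranges of a score and not cell types, and 2690 of the 16269 cells lay within 0.05 of a cut. Of the 20 late markers tested, 17 were themselves called higher in UV than in control keratinocytes and 16 higher in UV plus VD than in control. The bins therefore cannot tell more late cells from higher levels of these markers in cells of the same stage.

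In bin 5 Flg was at 413 CPM in UV plus VD, 1859 CPM in UV and 459 CPM in control. Hrnr was at 1110.3 CPM in UV plus VD, 2247 CPM in UV and 1284 CPM in control. Flg2 was at 1449.7 CPM in UV plus VD, 1198 CPM in UV and 2130 CPM in control. Among these cells that scored as late Flg and Hrnr were thus higher in UV than in control, by 4.05-fold [3.92, 4.18] and 1.75-fold [1.71, 1.79], while Flg2 was lower, at 0.563-fold [0.551, 0.575]. In that bin 2.82% of 9655 genes were called higher and 1.57% lower. Bin 4, where 2% of genes were called higher and 1.22% lower, had the same signs, with Flg at 19.3-fold [16.5, 22.8], Hrnr at 1.64-fold [1.55, 1.73] and Flg2 at 0.584-fold [0.536, 0.634]. Of the 628 UV cells of the stefin-led cluster 150 lay in bin 5 and the rest in earlier bins. The bin 4 values are given only with that cluster, and its part in them was not tested.

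The stefin-led cluster made up 21.4% of the UV cells of bin 5 and 0% of the control cells. Without it, UV against control was 2.71-fold for Flg [2.62, 2.81], 1.87-fold for Hrnr [1.83, 1.91] and 0.700-fold for Flg2 [0.685, 0.716], and Flg2 was no longer called, with 2.26% of genes higher and 1.14% lower. Rptn in bin 5 was at 0.357 CPM in UV plus VD, 259 CPM in UV and 0.196 CPM in control, and at 38.6 CPM in UV without that cluster. Without it UV plus VD was 3.01-fold lower than UV for Flg [2.93, 3.10] and 108-fold lower for Rptn [54.3, 253], against 4.51-fold [4.40, 4.62] and 725-fold [368, 1682] with it.

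Between UV plus VD and control bin 5 no longer showed the higher levels seen over all keratinocytes. UV plus VD was at 0.899-fold of control for Flg [0.868, 0.932], 0.865-fold for Hrnr [0.847, 0.883] and 0.681-fold for Flg2 [0.669, 0.693], and 0 of the 3 were called, against 0.577% of genes higher and 0.43% lower. At the low levels of the early bins some calls remained. Hrnr was 1.85-fold higher in UV plus VD in bin 1 [1.46, 2.34] and 1.97-fold in bin 2 [1.62, 2.38], and Flg2 1.73-fold in bin 2 [1.47, 2.03]. The share of all genes called in these bins is not given here. Hrnr in bin 1 was at 27.0 CPM in UV plus VD and 14.6 CPM in control. Fibroblasts had more, at 114 and 32.8 CPM, and were 3.47-fold higher in UV plus VD [2.39, 5.15]. For Flg2 the fibroblast ratio was 0.921 [0.710, 1.196]. The part of free RNA in the early bins was not tested. With the bins weighted as in control, the log2 ratio of UV plus VD against control on CPM plus 10 was -0.05 for Flg, -0.12 for Hrnr and -0.46 for Flg2, against 0.97, 0.91 and 0.66 over all keratinocytes. Between UV plus VD and UV, weighting the bins as in UV gave -2.18 for Flg, -0.96 for Hrnr and -3.51 for Rptn, and the 3 calls were kept.

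**Figure D4:**
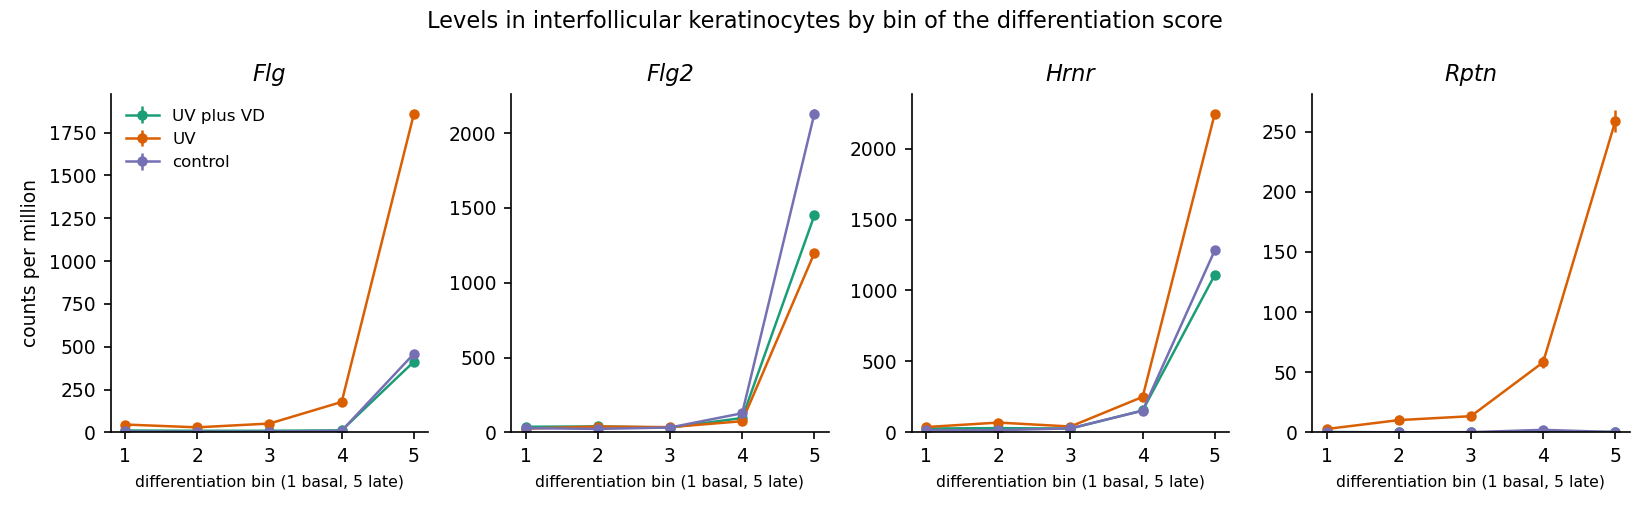
CPM of Flg, Flg2, Hrnr and Rptn in interfollicular keratinocytes of the UV plus VD, UV and control libraries, by bin of the differentiation score from basal (1) to late (5), with exact 95% Poisson intervals. In bin 5 UV is highest for Flg (1859 CPM) and lowest for Flg2 (1198 CPM), and UV plus VD lies below control for Flg, Flg2 and Hrnr.

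Flg, Flg2 and Hrnr were often found in the same keratinocyte. At least 1 of the 3 was found in 55.7% of keratinocytes in UV plus VD, 60.0% in UV and 34.5% in control. Of those cells, 24.9% in UV plus VD, 29.9% in UV and 13.9% in control carried all 3. Cells with Flg alone were 4.70% of them in UV plus VD, 18.6% in UV and 5.03% in control, and cells with Flg2 alone were 20.2%, 8.60% and 31.2%. After thinning to 3000 counts the shares with Flg alone were 4.78%, 19.2% and 4.51%, so the share in UV was as large with depth made equal. Thinning does not remove stray counts, and Flg was also found in 16.4% of UV fibroblasts and 25.3% of UV immune cells. The shares with Flg alone therefore do not show keratinocytes that make only Flg, and the part of free RNA in them was not tested. Across keratinocytes within a library, the correlation of log levels between Flg2 and Hrnr was 0.799 in UV plus VD, 0.732 in UV and 0.783 in control. Between Flg and Flg2 it was 0.615, 0.504 and 0.547 in the same order, as a description of cells that share a library and differ in depth.

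The genes whose levels followed the members most closely across keratinocytes, among 9489 compared, included Lor, Slurp1 and Cnfn, granular or cornifying markers of the differentiation score. For Flg these were Lor (loricrin, the main cornified-envelope protein; mean r 0.680 over the 3 libraries), Slurp1, Crct1, Chd3os and Il18. For Flg2 they were Serpina12 (0.796), Hrnr, Lor, Crct1 and Wfdc21, and for Hrnr they were Serpina12 (0.784), Flg2, Lypd5, Crct1 and Cnfn. Rptn, Tchh and Crnn had under 50 positive keratinocytes in at least 1 library and were not compared.

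Tchh belonged to the hair-forming cells. The UV library had 1936 Tchh counts, of which 92.4% came from the 310 hair-forming cells, where Tchh stood at 791 CPM and was found in 48 cells. One of these cells held 430 counts. The UV plus VD and control libraries had no cell in that cluster, and 42 and 51 Tchh counts in all, spread over 38 and 45 cells. In keratinocytes Tchh was at 0.620 CPM in UV plus VD, 2.84 CPM in UV and 0.636 CPM in control, 4.47-fold higher in UV than in control [3.16, 6.42], too low a level to be called with 10 CPM added.

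Crnn and Tchhl1 were rarer and rested on single cells. Crnn had 3 counts in UV plus VD, 226 in UV and 2 in control, and 177 of the UV counts came from 1 hair-forming cell. In keratinocytes it had 21 counts in UV and 2 in control, a ratio of 20.7 [5.05, 182]. Tchhl1 had 629 counts in the UV library, 511 of them in 1 cell and 594 in hair-forming cells, and 0 counts in both other libraries.

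Genes listed as inner root sheath and medulla partners of trichohyalin mostly showed the same split by library over all cells. The list shares Krt71, Krt25, Krt27, Krt28, Krt72, Krt73, Krt74 and Gata3 with the markers that named the hair-forming cluster, found only in UV. The calls below therefore largely restate that cluster and are no separate support. Of 11 tested genes on the list of inner root sheath and medulla partners, 7 were called higher in UV than in control, against 6.35% of 15461 genes, and 1 lower, against 0.944%. Between UV plus VD and UV 7 were called lower, against 6.31% of 15345 genes, and 1 higher, against 0.593%. Counts of Krt71, a keratin of the inner root sheath, were 0 in UV plus VD, 7262 in UV and 0 in control, and those of Krt25, its partner, were 11, 4788 and 3. Gata3, a transcription factor of the inner root sheath that other skin cells also express, went the other way, at 207 CPM in UV plus VD, 124 CPM in UV and 239 CPM in control.

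Genes that process profilaggrin or break filaggrin down were partly higher in UV. Of 14 tested, 5 were called higher in UV than in control keratinocytes (Asprv1, Casp14, Klk5, Blmh and Hal), against 2.42% of all genes, and 0 lower, with a median log2 ratio of 0.30 against -0.01 for all genes tested. Between UV plus VD and UV 0 were higher, against 0.261% of all genes, and 2 lower (Casp14 and Blmh), against 1.5%. Between UV plus VD and control 2 were higher (Asprv1 and Prss8), against 1.37%, and 0 lower, against 0.779%. Asprv1, the protease that cuts the linkers of profilaggrin, was at 4410 CPM in UV plus VD, 5291 CPM in UV and 2675 CPM in control. Klk7, a protease of the stratum corneum, was at 4588, 4708 and 3626 CPM, and Spink5, its inhibitor, at 1907, 1789 and 1536 CPM in the same order, neither of them called. Klk5 and Klk7 are also granular or cornifying markers of the differentiation score, so the call of Klk5 is no separate support. Casp14 and Blmh, both of which act in the breakdown of filaggrin, were thus lower in UV plus VD than in UV, as Flg was, and the other tested genes of the list were not called lower.

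Among cross-linking enzymes and structural partners 15 genes were tested. In UV against control 6 were called higher (Tgm1, Tgm3, Tgm5, Lor, Kprp and Cnfn), against 2.42% of all genes, and 0 lower, with a median log2 ratio of 0.51. In UV plus VD against UV 1 was higher (Krt2), against 0.261% of all genes, and 2 lower (Tgm3 and Krt1), against 1.5%. In UV plus VD against control 5 were higher (Tgm1, Lor, Krt2, Kprp and Cnfn), against 1.37%, and 0 lower, against 0.779%. Lor, Kprp and Cnfn are also granular or cornifying markers of the differentiation score, so their calls are no separate support. Cnfn, cornifelin of the cornified envelope, was at 3216 CPM in UV plus VD, 3098 CPM in UV and 1711 CPM in control. Krt10, the suprabasal keratin that filaggrin bundles, was at 11361 CPM in UV plus VD, 13420.5 CPM in UV and 11385 CPM in control, and Krt77 at 5575, 5468 and 4984 CPM, and neither was called.

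Most known regulators of late differentiation lay within 1.5-fold. Of 25 tested in UV against control 1 was called higher (Cebpb), against 2.42% of all genes, and 3 lower (Gata3, Nfe2l2 and Foxn1), against 1.22%, and 0 were called in either of the other comparisons. Klf4, a regulator of barrier formation, was at 471 CPM in UV plus VD, 605 CPM in UV and 419 CPM in control. The AP-1 subunits Junb and Fosl1 were at 448 and 588 CPM in UV plus VD, 419 and 394 CPM in UV, and 368 and 471 CPM in control. All lay within 1.5-fold of one another between libraries for each gene.

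The neighbours on the chromosome differed by side. Of the 20 protein-coding genes before Crnn, a stretch of Lce genes with Kprp and Crct1 that ends at Tdpoz8, 17 were tested. In UV against control keratinocytes 15 were called higher, against 2.42% of all genes, and 0 lower, and in UV plus VD against control 13 were higher, against 1.37%, and 0 lower. In UV plus VD against UV 2 were higher (Lce1l and Lce1m), against 0.261% of all genes, and 7 were lower, against 1.5%. These 7 were Lce1e, Lce1f, Lce1g, Lce3c, Lce3d, Lce3e and Lce3f. Of the 20 genes after Tchh 8, 8 and 7 were tested in UV against control, UV plus VD against UV and UV plus VD against control, and 0 were called in each. On the other side Lce1d, Lce1f, Lce1g, Lce1h, Lce1i, Lce1l, Lce1m and Kprp are also granular or cornifying markers of the differentiation score. Their calls restate those of the markers and are no separate support. Flg, Hrnr and Rptn, like the 7 Lce genes named above, were called higher in UV than in control and lower in UV plus VD than in UV. Flg2, which lies between Crnn and Flg, was called in neither of these comparisons.

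**Figure D5:**
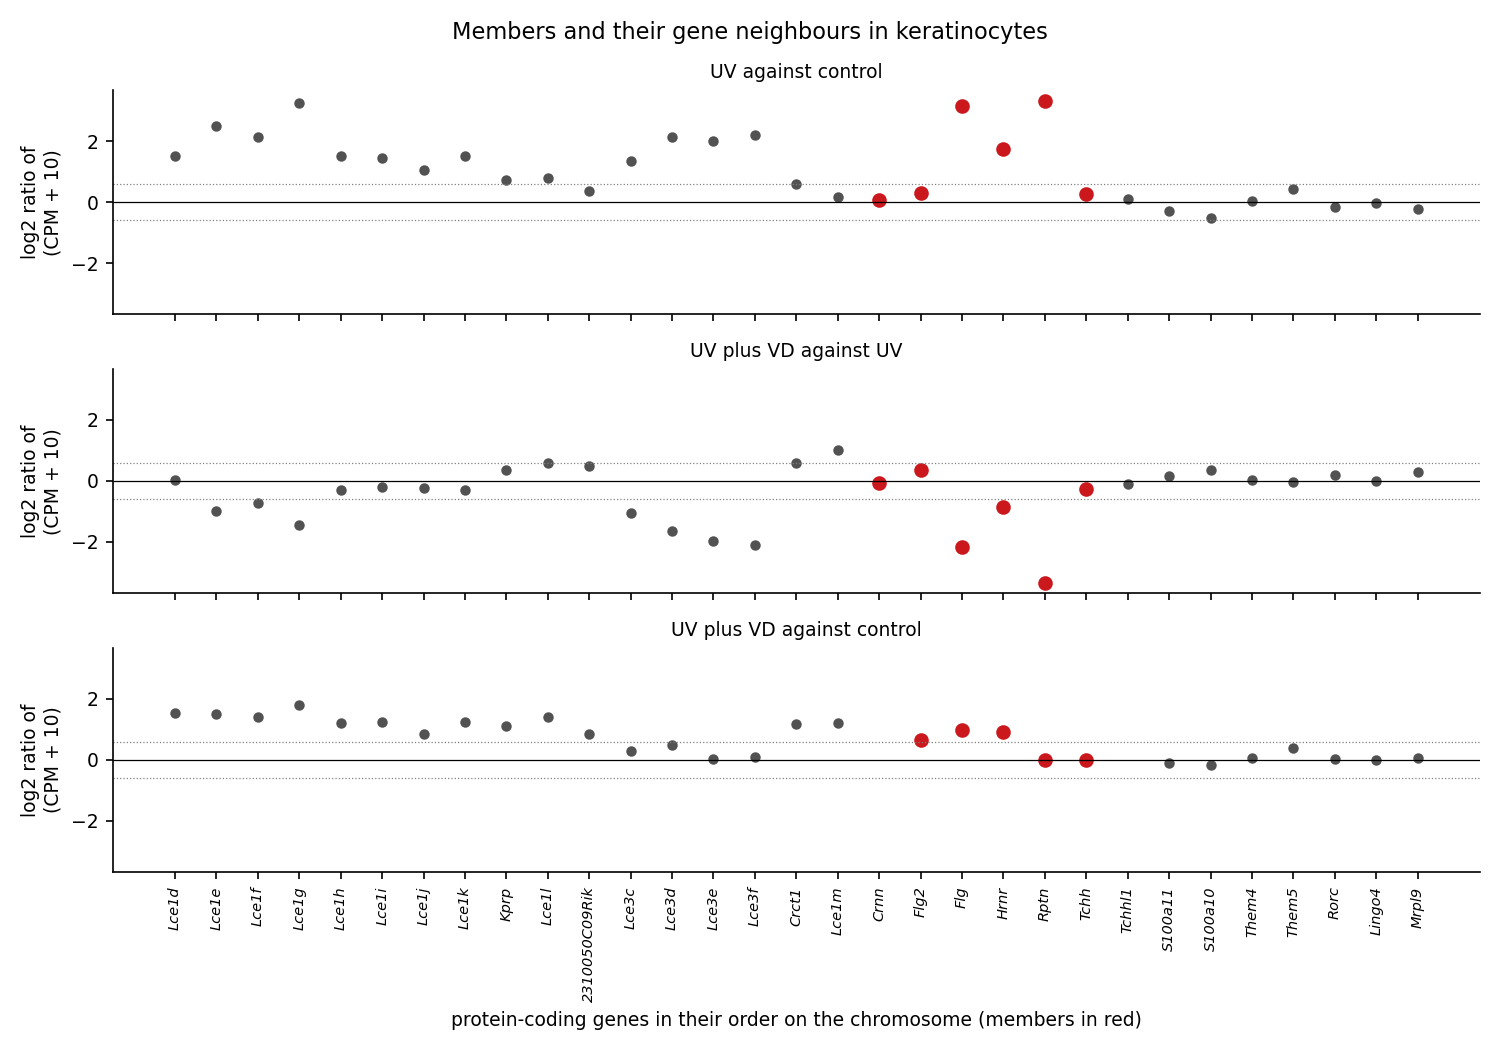
Log2 ratio of CPM plus 10 in keratinocytes for the members (red) and the tested genes among 20 on each side (grey), in their order on the chromosome, for UV against control, UV plus VD against UV and UV plus VD against control; dotted lines mark 1.5-fold. Flg (3.15) and Rptn (3.33) stand high in UV against control while their neighbour Flg2 (0.29) lies inside the lines.

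How reads that match several repeats of these genes were counted, and whether counting used strand, is not stated. Rplp0-ps1, a pseudogene inside Flg, had 52 counts in UV plus VD, 197 in UV and 21 in control, and Gm37857, which overlaps Rptn, had 1, 3 and 0. The part of reads shared with overlapping genes in the member counts was not tested.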

How the data were processed

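The deposited tables, 1 for each library, held whole-number counts of each gene in each cell. The submitters' processing notes name FastQC, fastp, STAR, featureCounts and the build GRCh38, a human one, although the symbols are those of mouse genes. Whether a count is a molecule or a read is not stated, nor are tool versions.

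Cells with at least 200 genes and at most 20% mitochondrial counts were kept. Scrublet called 0 cells in each library, so doublets were not removed. Cells were clustered with scanpy 1.11.5 (counts per 10000, 2000 variable genes without the 6 members and Tchhl1, 30 principal components, Leiden resolution 1) and clusters named from markers of 23 cell types. Within each library, counts of a class were added up and scaled to its total (CPM). Ratios have exact conditional binomial intervals, CPM exact Poisson and shares exact Clopper-Pearson intervals, all at 95%, which cover counting error only. A count of 0 is bounded by 3 counts. With 1 library per group no test was run. Calculations were tested on simulated data. Promoters came from RefSeq (GRCm38.p6).

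Named genes were the 6 members, Tchhl1, the 3 most abundant genes of each fixed list and the 5 genes most like each member, with list members named where called. The members, lists and markers were chosen with earlier results of these data known. The chromosomal neighbours and the differentiation weighting were chosen after values were seen. The alternatives tried are given in the closing section.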

Additional observations from a re-analysis of the deposited data

Results flagged for a closer look

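Flg2 differed in direction between classes in UV against control, on the log2 scale of CPM plus 10. It was 1.08 in follicle keratinocytes and -1.47 in fibroblasts, 2.547 apart. Bins 4 and 5 of the differentiation score were at -0.70 and -0.82, which is 1.7857 and 1.906 from the follicle value. Of the 119 Flg2 counts of control fibroblasts, 81 came from 1 cell.

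Hrnr differed in direction in UV plus VD against UV. It was 0.92 in fibroblasts, against -1.04 in suprabasal keratinocytes (1.9551 apart) and -0.65 in sebocytes (1.563 apart). The sebocyte value rests on 6 counts in UV plus VD and 43 in UV, and its ratio of 0.547 [0.190, 1.29] spans no difference. Bins 2, 4 and 5 were at -0.99, -0.66 and -1.01, which is 1.9067, 1.5793 and 1.9269 from the fibroblast value. Of the 139 Hrnr counts of UV plus VD fibroblasts, 47 came from 1 cell. None of these differences between classes was tested, since each group had 1 library.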

How the results depend on the processing

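With 1 CPM added in place of 10, or with none, 5 members were higher in UV than in control, and with none 5 were lower in UV plus VD than in UV. With none added, 18.5% of all genes were higher in the first comparison and 17.7% lower in the second. Over all cells, 1 member (Flg2) was higher in UV plus VD than in UV, against 0.593% of genes. With the differentiation bins weighted as in control, a setting chosen after seeing the data, 1 member (Flg2) was lower in UV than in control, and 0 were higher in UV plus VD than in control. There the log2 ratios of UV plus VD against control turned to -0.0515 for Flg, -0.46 for Flg2 and -0.12 for Hrnr. With keratinocyte clusters weighted likewise, also chosen after seeing the data, 0 members were higher in UV plus VD than in control and Flg2 was at -0.27. For 1 CPM added and for the weighted settings the share of all genes called is not given here, so these counts cannot be set against it. The weighting gives each library the same share of each bin or cluster, and why levels differed within a bin or cluster was not tested. The other 125 counts of called members stayed within 1.5 times, but not always with the same genes. In UV plus VD against UV, Hrnr was not called lower over all cells, where Tchh was, nor in follicle keratinocytes, with log2 ratios of -0.57 and -0.27. With keratinocyte layers weighted as in control, Flg2 was not called higher in UV plus VD than in control. Over 20 alternatives the log2 ratio of UV against control lay between 1.66 and 3.29 for Flg, 0.80 and 1.84 for Hrnr and 1.03 and 5.93 for Rptn. That of UV plus VD against UV lay between -2.24 and -0.85 for Flg, -1.04 and -0.27 for Hrnr and -6.04 and -1.19 for Rptn, and Flg2 changed sign in each comparison. No paired analysis was possible because each group had 1 library, and no replicate could be left out. Outside UV, Crnn had at most 3 counts a class. Rptn had 95 in UV plus VD and 89 in control follicle keratinocytes there, and fewer in the other separate classes, so its values outside UV rest on few counts.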
